A study of Mus musculus with 6 samples.

Results

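The genes described here are 38 antiviral effectors that interferon induces, taken by symbol from a table of 24043 rows of brown adipose tissue expression, the heat-producing fat depot of the mouse. All 38 symbols were found. Sensors, IRF and STAT factors and the GBP and IRG GTPases were left out of the set by its rule, and the set was put together with earlier results of the same data known. PolyA RNA of brown fat from C57BL6 mice was sequenced, with 3 libraries labelled AdIl17rc KO and 3 labelled WT. By the series title, the knockout concerns IL-17RC, a receptor chain for the cytokine IL-17, in fat cells. The labels used here do not state which driver deleted the gene, whether WT animals carry any of the same alleles, or the sex, age and housing temperature. Nor do they tie each library to an animal of its own, and the spread that p-values measure may therefore be technical. Values are FPKM (fragments per kilobase of transcript, scaled to the sequencing depth), a scale per length on which levels of different genes can be compared.

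Interferons bind receptors at the cell surface, whose JAK kinases activate transcription factors of the STAT family. Together with IRF9 these form a complex that binds the interferon-stimulated response element, a short DNA motif upstream of antiviral genes. The products of those genes attack a virus at many steps: they block its entry, bind or degrade its RNA, stall translation and hold back budding. Most cells keep the programme at a low level when no infection is present, and interferon released by neighbouring or immune cells can raise it.

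The 4 promoters shown belong to the effectors with the highest fold changes among those that are given in full and hold a match to the response element. The sequences are RefSeq's on GRCm38.p6, which is not the build named for the deposited table, and run from 170 bases before the annotated start to the base before it, 5′ to 3′ on the gene's strand: Ifit1 from chr19:34640719-34640888 (plus strand), Rsad2 from chr12:26456453-26456622 (minus strand), Ifit3 from chr19:34583359-34583528 (plus strand) and Isg15 from chr4:156200819-156200988 (minus strand). Capitals mark matches to the core of the response element on either strand, written here as GAAA, 2 bases of any kind and a second GAAA (on the other strand TTTC, 2 bases and TTTC).
Ifit1: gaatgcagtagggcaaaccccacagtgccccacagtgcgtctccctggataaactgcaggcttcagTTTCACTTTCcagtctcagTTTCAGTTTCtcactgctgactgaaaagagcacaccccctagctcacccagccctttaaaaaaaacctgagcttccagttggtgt
Rsad2: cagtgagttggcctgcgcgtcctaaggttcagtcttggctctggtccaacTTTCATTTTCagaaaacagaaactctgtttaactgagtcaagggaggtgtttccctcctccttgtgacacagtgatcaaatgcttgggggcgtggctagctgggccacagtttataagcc
Ifit3: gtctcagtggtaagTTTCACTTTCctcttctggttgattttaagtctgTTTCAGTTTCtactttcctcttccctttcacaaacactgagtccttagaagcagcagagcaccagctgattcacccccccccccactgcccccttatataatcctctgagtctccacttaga
Isg15: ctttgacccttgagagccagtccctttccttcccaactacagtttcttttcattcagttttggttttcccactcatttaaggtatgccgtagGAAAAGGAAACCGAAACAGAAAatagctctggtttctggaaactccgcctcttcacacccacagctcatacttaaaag

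Ifit1 and Ifit3 each held 2 separate matches, Rsad2 held 1, and Isg15 held 3 that overlap between 78 and 57 bases before its start. Of the 38 members, 28 had a promoter window in the RefSeq table, which covers 250 bases before to 50 bases after a start, and 12 of these genes (42.9%) held at least 1 match on either strand. Among all genes with such a window the share was 3.99% (1079 of 27025), and among all windows it was 3.44% (1131 of 32851). In 10 of the 12 genes a match lay before the start, and in Ifitm3 and Eif2ak2 the matches lay after it. A match to these letters is a description of the sequence, and binding was not measured. Of the 12 genes, 9 were expressed highly enough to be tested. Their median log2 fold change was 0.81, and it was 0.51 for the 16 tested members with a window and no match. With the scaling described below, these medians were 1.14 and 0.74, and the ranges overlapped (0.34 to 2.27 and 0.16 to 1.63). Other tested genes had medians of -0.21 with a match and -0.29 without (0.08 and -0.0072 scaled). Tested members without a window enter neither median, and whether a match goes with the change was not tested.

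**Figure D1:**
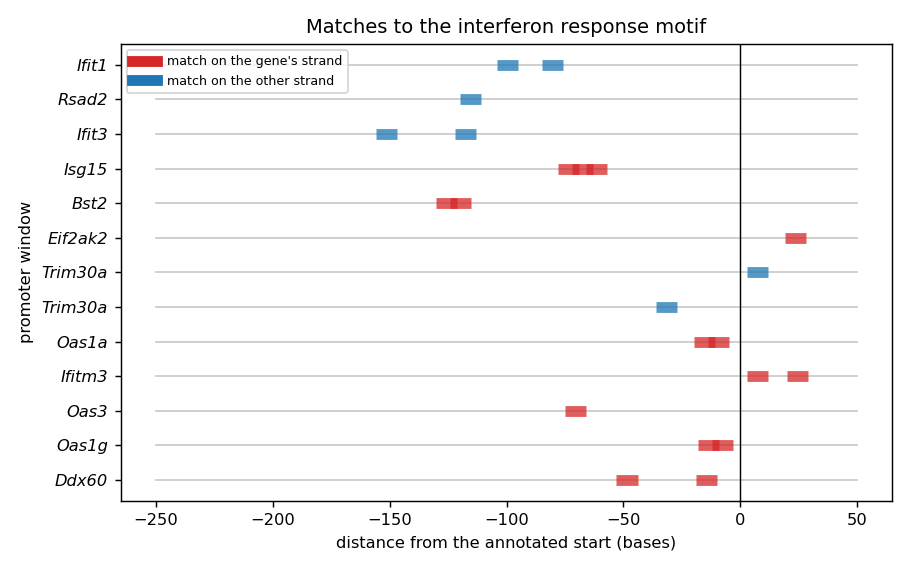
Matches to the response element in the promoter windows of the 12 effectors that hold any, as distance in bases from the annotated start (0), 1 line per window, ordered by scaled fold change with the untested Oas3, Oas1g and Ddx60 last. Red bars are on the gene's strand and blue bars on the other strand; in 10 of the 12 genes a match lies before the start.

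Il17rc, the targeted gene, was at 1.32, 0.619 and 0.530 FPKM in knockout libraries 1, 2 and 3, against 3.21, 2.28 and 2.02 FPKM in wild-type libraries 1, 2 and 3, without overlap (log2 fold change -1.21 ± 0.25 SE, limma adjusted p = 0.151). Brown fat cell markers were abundant in both groups, with a summed level of 16432 to 18855 FPKM in knockout and 15897 to 18356 FPKM in wild type over 9 genes. After scaling these sums were 18790 to 21097 FPKM in knockout and 13807 to 15581 FPKM in wild type, without overlap, and 8 of the 9 genes had a positive log2 fold change (5 of 9 as deposited). Depth, approximated from the value of a single fragment in low genes, was 31.6 to 36.6 megafragments in knockout and 33.5 to 39.1 in wild type. Skeletal muscle markers differed strongly between libraries: 8 of them summed to 208, 368 and 1.57 FPKM in knockout libraries 1, 2 and 3 and to 2.99, 2.37 and 29.4 FPKM in wild-type libraries 1, 2 and 3. The median of the 10864 tested genes lay 0.29 log2 units lower in knockout, so changes are also given relative to that median, after median-of-ratios scaling of the libraries ("scaled"). The scaling factor was 1.33 for wild-type library 1 and 0.84 to 1.05 for the other libraries. As deposited, wild-type library 1 was the highest of the 6 for 72.5% of all tested genes. Without it the median was -0.18, and 20.9% of all tested genes had a positive log2 fold change, against 12.4% with all libraries.

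Antiviral effectors stood higher in knockout brown fat for nearly every gene measured well enough to compare. Of the 38, 35 had a mean of at least 0.5 FPKM over the 6 libraries and entered the test, and 33 of those had a positive log2 fold change, where 12.4% of all tested genes did. After scaling all 35 were positive, against 49.6% of all tested genes. The median log2 fold change of the tested members was 0.57 (0.86 scaled), against -0.29 over all genes (-0.0017 scaled). Without knockout library 3 and wild-type library 3, the libraries at the ends of the range, 27 of 35 were positive and the median was 0.14 (31 and 0.44 scaled), an alternative chosen after seeing the data. Of all tested genes 12.4% were then positive, with a median of -0.29 (50.1% and 0.0004 scaled). Without knockout library 3 alone, 30 members were positive and their median was 0.31 (34 and 0.51 scaled). The corresponding values over all tested genes were 13.3% and -0.24 (50.7% and 0.0038 scaled).

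All 3 knockout values lay above all 3 wild-type values for 16 of the 35 members, and for 1.25% of all tested genes. After scaling this held for 25 of the 35, against 12.9% of all tested genes. No member had the opposite order, with all knockout values below all wild-type values, where 31.7% of all tested genes did (12.5% scaled). No member passed an adjusted p of 0.05 over all genes by limma, as deposited or scaled, and on either scale 0.0092% of all tested genes were called higher and 0.0184% in either direction. At an unadjusted limma p under 0.05, 16 members were higher and 0 lower, against 1.01% of all tested genes called higher by that rule; after scaling 28 were higher, against 9.05%. These counts were 12 without knockout library 3, 12 without wild-type library 3 and 8 without both, and after scaling 21, 18 and 17 in the same order. The share of all tested genes higher by that rule is not given for these settings, so these counts cannot be set against it. Ranked from the highest log2 fold change down, 12 members were among the top 100 of the 10864 genes and 23 among the top 200. In whole tissue, a difference in the number of responding cells and a difference in RNA per cell cannot be told apart.

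**Figure D2:**
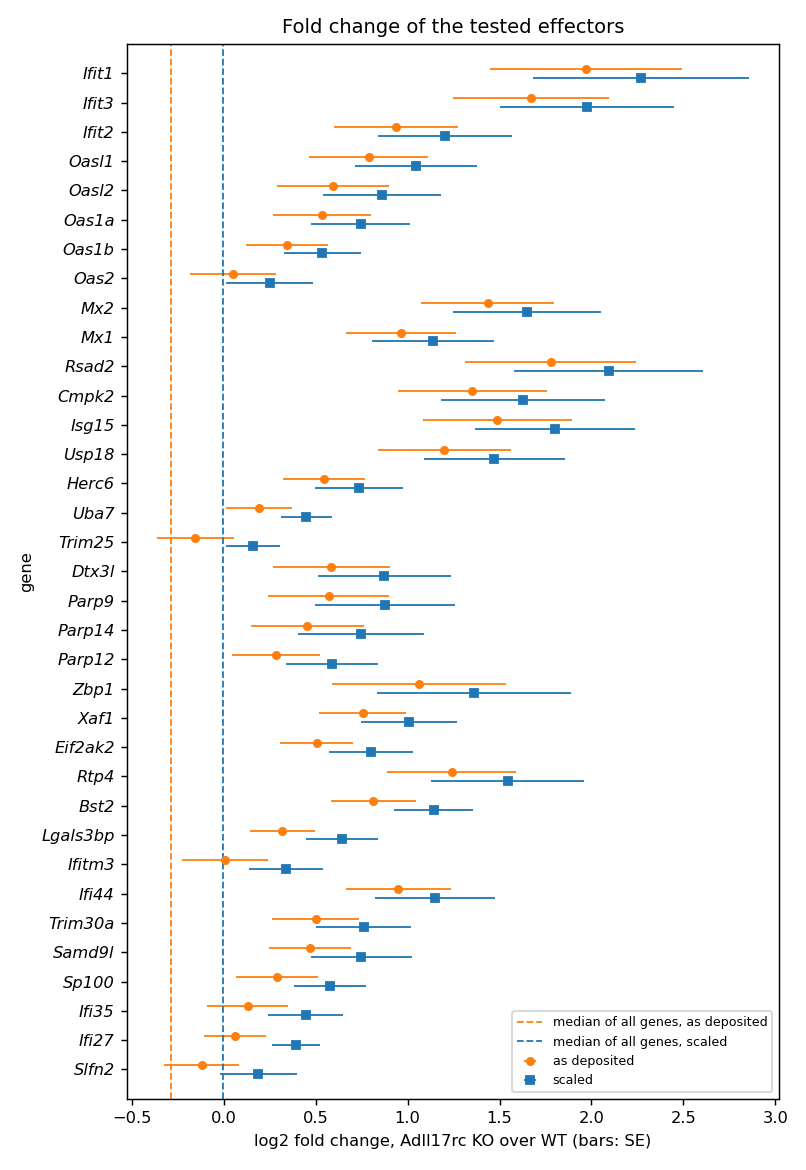
Log2 fold change of AdIl17rc KO over WT for the 35 tested effectors (points, bars are SE, n = 3 libraries per group), as deposited (orange) and scaled (blue), with the medians of all 10864 genes as dashed lines. As deposited 33 points lie above 0 and all lie above the dashed median; after scaling all 35 lie above 0.

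The IFIT proteins bind RNA ends that lack the marks of host mRNA and keep them from being translated. Ifit1 was at 8.62, 9.45 and 25.6 FPKM in knockout libraries 1, 2 and 3, against 3.06, 5.98 and 1.20 FPKM in wild-type libraries 1, 2 and 3. Every knockout library was above every wild-type library, and knockout library 3 stood well above the other two. Its mean was 14.5 ± 9.55 FPKM in knockout and 3.41 ± 2.41 FPKM in wild type (SD, n = 3 each), a log2 fold change of 1.97 ± 0.52 (SE) and the highest of the set (limma adjusted p = 0.151). Ifit3 was at 8.93, 8.73 and 21.5 FPKM in knockout against 3.98, 5.45 and 1.72 FPKM in wild type, again without overlap (log2 fold change 1.67 ± 0.42, limma adjusted p = 0.151). Of the 50-base stretches in the Ifit3 transcript, 51.2% also occur in Ifit3b, so how reads were split between these copies is uncertain. The Ifit3b row, listed under its older name I830012O16Rik, had the same pattern, with 4.31, 4.23 and 9.78 FPKM in knockout and 2.0, 2.70 and 0.898 FPKM in wild type. Ifit2 was lower in level, at 2.38, 2.53 and 4.56 FPKM in knockout against 1.66, 2.09 and 0.618 FPKM in wild type, and the groups did not overlap (log2 fold change 0.94).

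Viperin, encoded by Rsad2, turns a nucleotide into a form that ends viral RNA chains, and Cmpk2, the next coding gene on chromosome 12, encodes a nucleotide kinase that feeds this reaction. Rsad2 was at 14.1, 15.2 and 40.6 FPKM in knockout libraries 1, 2 and 3, against 7.04, 8.60 and 2.89 FPKM in wild-type libraries 1, 2 and 3. Cmpk2 was at 3.35, 3.52 and 8.55 FPKM in knockout against 1.87, 2.44 and 0.708 FPKM in wild type. The neighbours shared their order of libraries, with knockout library 3 highest and wild-type library 3 lowest and no overlap between the groups. Log2 fold changes were 1.78 ± 0.46 for Rsad2 and 1.35 ± 0.40 for Cmpk2 (SE, limma adjusted p = 0.151 and 0.156).

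Mx proteins are dynamin-like GTPases that trap viral nucleoproteins; many laboratory mouse strains carry a defective Mx1. Mx2 was at 1.92, 1.28 and 4.39 FPKM in knockout against 0.530, 0.831 and 0.272 FPKM in wild type. Mx1 was lower, at 0.707, 0.672 and 1.92 FPKM in knockout against 0.320, 0.409 and 0.119 FPKM in wild type. For both genes the groups did not overlap. The log2 fold change was 1.44 ± 0.36 for Mx2 and 0.96 ± 0.30 for Mx1 (SE), on a scale with 0.5 FPKM added that understates changes of such low genes. The ratio of mean levels was 4.64 for Mx2 and 3.89 for Mx1. Wild-type library 3 had roughly 14.7 fragments for Mx1, the fewest of any tested member in any library.

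Isg15 is a ubiquitin-like protein that is joined to other proteins by the activating enzyme Uba7 and, in the mouse, the ligase Herc6, and is removed by Usp18, which also dampens the interferon receptor. Isg15 itself was at 14.2, 11.2 and 28.2 FPKM in knockout libraries 1, 2 and 3, against 6.94, 8.08 and 3.0 FPKM in wild-type libraries 1, 2 and 3 (log2 fold change 1.49 ± 0.40 SE, limma adjusted p = 0.151). Usp18 was at 3.32, 2.76 and 6.66 FPKM in knockout against 1.89, 2.05 and 0.707 FPKM in wild type. Neither gene's groups overlapped. The conjugating enzymes differed less. Herc6 was at 0.943, 0.776 and 1.40 FPKM in knockout against 0.501, 0.819 and 0.357 FPKM in wild type, and Uba7 at 2.15, 1.70 and 1.80 FPKM in knockout against 1.83, 1.77 and 1.20 FPKM in wild type. As deposited, 1 wild-type library or more overlapped the knockout range for each of them. After scaling the groups of Herc6 and Uba7 no longer overlapped. Trim25, a ubiquitin ligase of the RNA sensor RIG-I, was at 7.62, 5.96 and 8.32 FPKM in knockout against 10.7, 6.80 and 7.30 FPKM in wild type; its log2 fold change of -0.15 (limma adjusted p = 0.607) turned to 0.16 with scaling. Log2 fold changes in this group therefore ran from -0.15 for Trim25 over 0.19 for Uba7, 0.54 for Herc6 and 1.20 for Usp18 to 1.49 for Isg15.

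**Figure D3:**
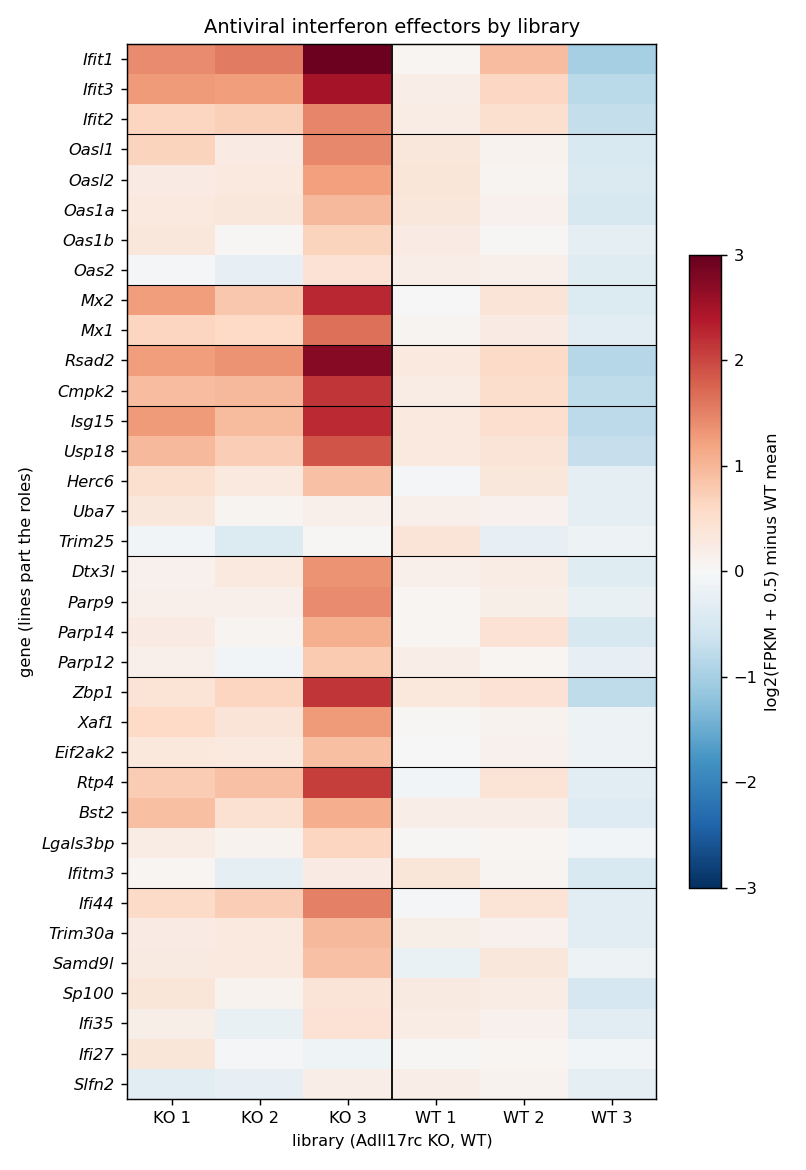
Log2(FPKM + 0.5) of the 35 tested effectors in each library (columns, AdIl17rc KO libraries 1 to 3 and WT libraries 1 to 3), minus the mean of the 3 WT libraries, with lines between roles. Knockout library 3 is the highest of the 6 for 31 of 35 genes, and wild-type library 3 the lowest for 31 of 35.

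OAS enzymes make oligoadenylates on double-stranded RNA that switch on RNase L, and OAS-like proteins are their relatives. They were expressed at low levels, and 5 of 7 were tested. As deposited the groups overlapped for all 5, with log2 fold changes from 0.05 for Oas2 to 0.79 for Oasl1. After scaling the groups of 4 no longer overlapped, Oas2 being the exception. Oasl1, which in the mouse is known to restrain translation of Irf7, was at 2.16, 1.47 and 4.03 FPKM in knockout against 1.62, 1.30 and 0.708 FPKM in wild type. Oasl2 was at 1.84, 1.93 and 4.13 FPKM in knockout against 2.04, 1.58 and 0.953 FPKM in wild type. In both genes knockout libraries 1 and 2 were near wild-type libraries 1 and 2. Oas1a and Oas1g are neighbours on chromosome 5 that share most of their sequence (57.6% of the 50-base stretches of Oas1a occur in Oas1g), so their separate levels are uncertain. Oas1g and Oas3 lay below the minimum for the test: Oas1g had 0.268 to 0.613 FPKM in knockout and 0.141 to 0.315 FPKM in wild type, and Oas3 had 0.109 to 0.400 FPKM in knockout and 0.108 to 0.166 FPKM in wild type. Oas1b, a full-length copy of which confers flavivirus resistance in wild mice, was at 0.766, 0.528 and 1.11 FPKM in knockout against 0.704, 0.533 and 0.324 FPKM in wild type.

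Parp9 and Dtx3l form a complex that modifies histones and viral proteins, and Parp12 and Parp14 attach ADP-ribose to proteins; Parp14, Dtx3l and Parp9 follow each other on chromosome 16. Parp9 was at 5.25, 5.24 and 13.4 FPKM in knockout libraries 1, 2 and 3, against 4.88, 5.36 and 3.94 FPKM in wild-type libraries 1, 2 and 3. Dtx3l was at 2.89, 3.26 and 7.31 FPKM in knockout against 2.94, 3.10 and 1.89 FPKM in wild type. For Parp9 knockout libraries 1 and 2 lay among the wild-type values; for Dtx3l knockout library 1 did, and knockout library 2 was slightly above all of them. In both genes knockout library 3 was the highest and wild-type library 3 the lowest. Parp12 was at 5.68, 4.81 and 9.17 FPKM in knockout against 5.90, 5.36 and 4.19 FPKM in wild type. As deposited, its knockout libraries 1 and 2 were again among the wild-type values. After scaling the groups of Parp12 no longer overlapped, while those of Parp9, Dtx3l and Parp14 still did. With all libraries the log2 fold changes were 0.57 for Parp9, 0.58 for Dtx3l, 0.28 for Parp12 and 0.46 for Parp14. Without knockout library 3 and wild-type library 3 they were 0.03, 0.02, -0.10 and -0.09 in the same order. After scaling the values were 0.88, 0.87, 0.59 and 0.75 with all libraries, and 0.34, 0.31, 0.21 and 0.20 without both. The median over all tested genes without both was -0.29 as deposited and 0.0004 scaled.

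Among effectors that answer viral nucleic acid by stopping translation or killing the cell, Zbp1, a receptor for Z-form nucleic acid that can start necroptosis, was at 4.22, 5.04 and 15.2 FPKM in knockout against 3.96, 4.31 and 1.61 FPKM in wild type. The groups overlapped in that knockout library 1 was below wild-type library 2. The log2 fold change of Zbp1 was 1.06 ± 0.47 (SE), and without both libraries 3 it was 0.14 (0.44 scaled). Eif2ak2, the kinase PKR that halts translation, was at 4.25, 4.17 and 6.60 FPKM in knockout against 3.33, 3.68 and 2.94 FPKM in wild type, without overlap (log2 fold change 0.51 ± 0.20 SE). The apoptosis-promoting gene Xaf1 was at 2.05, 1.70 and 3.62 FPKM in knockout against 1.24, 1.32 and 1.02 FPKM in wild type, also without overlap. Ddx60, a helicase, was too low for the test at 0.120, 0.0803 and 0.284 FPKM in knockout against 0.0425, 0.105 and 0.0130 FPKM in wild type.

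Of the membrane and secreted effectors, Bst2, or tetherin, which holds budding virus at the cell surface, was at 45.4, 33.4 and 52.4 FPKM in knockout libraries 1, 2 and 3, against 27.8, 27.9 and 18.3 FPKM in wild-type libraries 1, 2 and 3. The groups did not overlap, and with 43.7 ± 9.57 FPKM in knockout and 24.7 ± 5.54 FPKM in wild type (SD, n = 3 each) its SD was smaller relative to the mean than that of Ifit1. Its scaled log2 fold change of 1.14 ± 0.22 (SE) had the smallest scaled p of the set, with a limma adjusted p of 0.226. Rtp4, a receptor transport protein, was at 7.26, 7.92 and 18.9 FPKM in knockout against 3.84, 5.62 and 3.13 FPKM in wild type. Lgals3bp, a secreted galectin-binding glycoprotein, was at 21.8, 19.9 and 29.2 FPKM in knockout against 19.1, 19.3 and 17.6 FPKM in wild type, a small difference but again without overlap. Ifitm3, which blocks entry of enveloped viruses from endosomes, did not share the pattern, at 98.4, 78.3 and 113 FPKM in knockout against 123, 100.4 and 69.3 FPKM in wild type (log2 fold change 0.0073, or 0.34 after scaling).

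The most abundant member was Ifi27, a small hydrophobic interferon-induced protein, at 590.0, 438 and 420.4 FPKM in knockout against 467, 474 and 432 FPKM in wild type. Knockout library 3, the highest for most members, was the lowest of the 6 for Ifi27. The log2 fold change of Ifi27 came to 0.06 ± 0.17 (SE), and to 0.39 ± 0.13 after scaling, where the groups no longer overlapped. Ifi35 was at 9.63, 7.16 and 11.5 FPKM in knockout against 9.85, 9.26 and 6.54 FPKM in wild type, and Slfn2, a regulator of immune cell quiescence, at 5.01, 5.30 and 7.44 FPKM in knockout against 7.40, 6.89 and 5.08 FPKM in wild type. The groups of both genes overlapped, and the sign for Slfn2 depended on scaling, with a log2 fold change of -0.12 without it and 0.19 with it. Ifi44 was at 0.987, 1.16 and 2.34 FPKM in knockout against 0.445, 0.825 and 0.279 FPKM in wild type, without overlap. The remaining members of this group, Trim30a, Samd9l and Sp100 (a nuclear body protein), had log2 fold changes of 0.50, 0.47 and 0.29. As deposited, the groups of Trim30a alone among these did not overlap. After scaling those of Sp100 did not overlap either. The most abundant members were not those with the largest changes: Ifi27 and Ifitm3, the highest by mean level, had log2 fold changes near 0, while the 6 with the largest ones (Ifit1, Rsad2, Ifit3, Isg15, Mx2 and Cmpk2) averaged between 1.54 and 14.7 FPKM over the 6 libraries.

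The members varied together from library to library within each genotype as well as between genotypes. Knockout library 3 had the highest value among the 6 libraries for 31 of 35 tested members, and for 6.48% of all tested genes. Wild-type library 3 had the lowest for 31 of 35, and for 5.64% of all tested genes. After scaling the counts were 34 of 35 for knockout library 3 (27.8% of all tested genes) and 27 of 35 for wild-type library 3 (12% of all tested genes). Relative to the wild-type mean, the median member stood at 0.37, 0.29 and 1.09 log2 units in knockout libraries 1, 2 and 3, and at 0.20, 0.20 and -0.36 in wild-type libraries 1, 2 and 3. As deposited, then, knockout libraries 1 and 2 were above wild-type libraries 1 and 2 by less than wild-type library 3 was below them. The medians over all tested genes were -0.13, -0.35 and -0.37 in knockout and 0.21, -0.12 and -0.09 in wild type. After scaling the medians of the members were 0.51, 0.62 and 1.52 in knockout and -0.01, 0.30 and -0.29 in wild type. Every knockout library was then above every wild-type library. The scaled medians over all tested genes lay between -0.0049 and 0.0078. Without knockout library 3 and wild-type library 3, both remaining knockout values exceeded both remaining wild-type values for 16 of 35 members (25 scaled), where 4.09% of all tested genes did (23.3% scaled). The 6 members with the largest fold changes kept a positive log2 fold change in that setting. The values were 0.99 for Ifit1, 0.87 for Rsad2, 0.85 for Ifit3, 0.71 for Isg15, 0.82 for Mx2 and 0.58 for Cmpk2. These members were picked by fold changes that include the retained libraries.

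**Figure D4:**
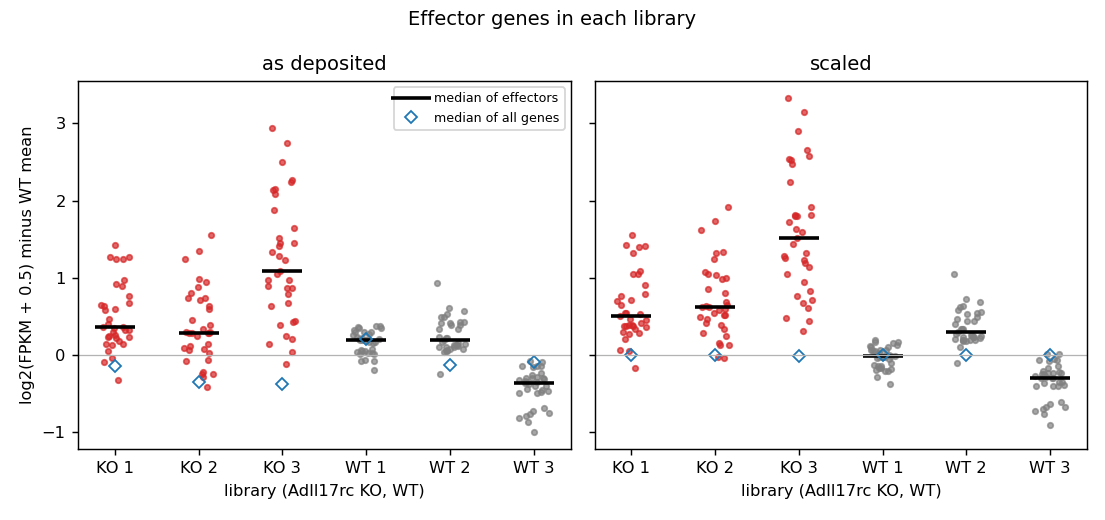
Log2(FPKM + 0.5) minus the wild-type mean for each of the 35 tested effectors (points) in each library, as deposited (left) and scaled (right), with the median of the effectors (bar) and of all 10864 genes (diamond). Knockout library 3 has the highest effector median (1.09 as deposited, 1.52 scaled) and wild-type library 3 the lowest (-0.36 and -0.29).

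Marker genes of other cell types were compared over the same libraries. Macrophage markers, all 8 in the table detected in every library, summed to 28.5 to 33.4 FPKM in knockout and 25.9 to 52.1 FPKM in wild type. The 5 neutrophil markers summed to 14.1 to 55.4 FPKM in knockout and 55.9 to 78.2 FPKM in wild type. After scaling the neutrophil ranges overlapped, at 16.6 to 66.2 FPKM in knockout and 53.1 to 74.4 FPKM in wild type. The 6 endothelial markers summed to 105.6 to 164 FPKM in knockout and 157 to 281 FPKM in wild type, and 0 of 6 had a positive log2 fold change on either scale (median -0.51, or -0.21 scaled). The 6 fibroblast markers summed to 70.2 to 83.2 FPKM in knockout and 88.1 to 149 FPKM in wild type, and after scaling these ranges overlapped, at 82.9 to 95.4 FPKM in knockout and 66.3 to 142 FPKM in wild type. Plasmacytoid dendritic cells, strong interferon producers, were near the floor: their 5 markers summed to 0.289 to 0.518 FPKM in knockout and 0.144 to 0.388 FPKM in wild type, and Cd300c was listed at 0 in 5 of the 6 libraries. The 6 T cell markers summed to 1.1 to 2.59 FPKM in knockout and 0.860 to 2.92 FPKM in wild type. The 4 B cell markers, all below the minimum for the test, summed to 0.345 to 0.466 FPKM in knockout and 0.519 to 1.12 FPKM in wild type. After scaling these ranges still did not overlap (0.412 to 0.498 and 0.508 to 0.841 FPKM). The ranges of NK cell markers (0.266 to 1.25 and 0.207 to 0.683 FPKM) and conventional dendritic cell markers (2.07 to 4.87 and 3.78 to 6.46 FPKM) overlapped. The sum of the muscle markers was high in knockout libraries 1 and 2 and lowest in knockout library 3, where the effectors were highest. That rank rests on Acta1, at 0.992 FPKM in knockout library 3 and 2.75, 2.10 and 9.16 FPKM in wild-type libraries 1 to 3. Every other muscle marker was lower in wild-type library 1 than in knockout library 3. What part any of these differences has in the effector levels was not tested.

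The rest of the interferon pathway was described from lists made with earlier results known. Of 14 interferon genes, 12 were listed at 0 in every library. Ifnb1 had 0.0971 FPKM in knockout library 2 and 0.0442 FPKM in knockout library 3, and was listed at 0 in the other libraries. Ifng was listed at 0, 0 and 0.0249 FPKM in knockout, against 0.109, 0.0235 and 0.0754 FPKM in wild type. The counts of signs that follow stand against the share of all tested genes with a positive sign, which was 12.4% as deposited and 49.6% scaled. Of 7 tested receptors and JAK kinases 0 were positive (median -0.43), and after scaling 1 was, Ifnar2 at 0.30 (median -0.22). Among the 9 STAT and IRF factors 5 were positive (6 scaled), and Irf7, a factor that amplifies interferon production, was the highest at 1.35. Of 10 tested sensors and adaptors 5 were positive (7 scaled), with Ifih1 highest at 0.55. Of 5 tested negative regulators 1 was positive (2 scaled), Socs1 at 0.25.

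GBP and IRG GTPases, which interferon-gamma induces strongly and which attack vacuoles of intracellular microbes, were described as a list of their own. Of 17 tested, 16 were positive (17 scaled), with a median log2 fold change of 0.87 (1.17 scaled). The groups overlapped for all but Gbp3, however, both as deposited and scaled, where 16 and 25 of 35 effectors did not overlap. Of all tested genes, 1.25% as deposited and 12.9% scaled had all knockout values above all wild-type values. Iigp1 was at 22.4, 27.7 and 159.9 FPKM in knockout against 9.56, 37.1 and 8.66 FPKM in wild type, so that wild-type library 2 exceeded knockout libraries 1 and 2. Igtp was at 24.3, 21.1 and 77.8 FPKM in knockout against 14.9, 27.5 and 9.86 FPKM in wild type, and here too wild-type library 2 exceeded knockout libraries 1 and 2. Over these GTPases and the lists before them, 48 tested genes in all, 0 passed an adjusted p of 0.05 by limma. At an unadjusted limma p under 0.05, 4 were higher and 8 lower, where 110 of all tested genes were higher and 2692 lower. After scaling 17 were higher and 3 lower, where 983 of all tested genes were higher and 935 lower. Whether the GTPases and the effectors differ in overlap beyond the spread between libraries was not tested.

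**Figure D5:**
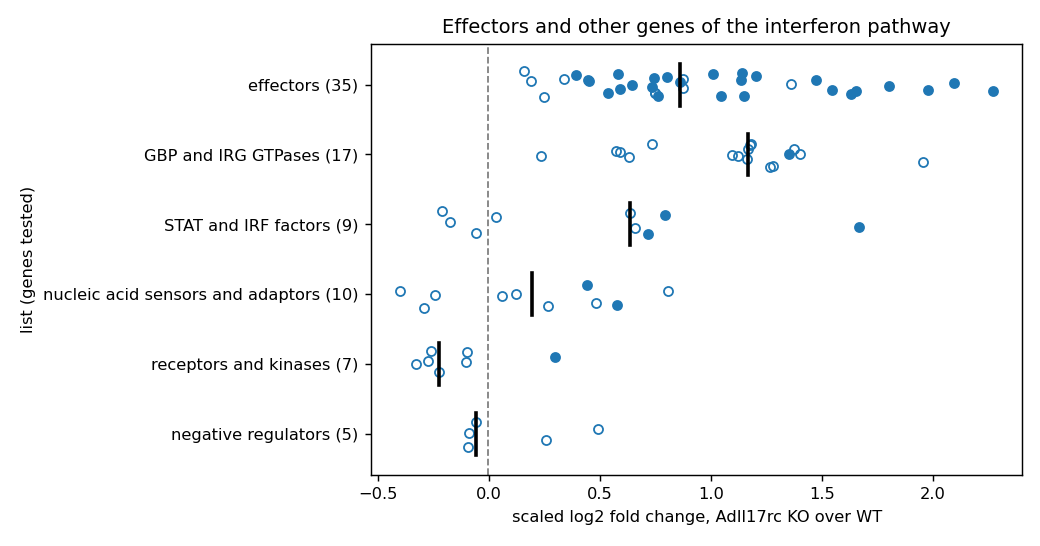
Scaled log2 fold change of AdIl17rc KO over WT for each tested gene of the effectors and of 5 other interferon pathway lists (rows, number of genes in brackets), with the list median (bar) and the median of all genes (dashed). Filled points are genes whose scaled knockout values all exceed the wild-type values: 25 of 35 effectors and 1 of 17 GBP and IRG GTPases. The share of all tested genes was 12.9%.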

How the data were processed

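The authors deposited 1 table of FPKM values with 6 library columns. The values were not whole, so no count model was used. STAR 2.5.1b, Cufflinks 2.2.1 and DESeq2 1.10.1 and build mm9 are named in the submitters' processing notes; the sources used here give no annotation, strand setting or treatment of reads with several matches, so reads of overlapping or antisense genes cannot be told apart. Rows whose symbols had become dates (27) were left out. The 10864 genes averaging at least 0.5 FPKM entered a two-sided limma-trend test of genotype (limma 3.58.1, R 4.3.3) on the log2(FPKM + 0.5) scale, adjusted by Benjamini-Hochberg over all of them at a threshold of 0.05. The script was tested on simulated data. Depth was approximated as above; fragment numbers use GRCm38 transcript lengths and cover counting only. Exact permutation of 3 against 3 cannot go below p = 0.1.

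The members, the other gene lists and the tests were chosen with earlier results of these data known. Values per library are given for the 2 most abundant tested members of each role, the 6 largest and 3 smallest log2 fold changes, and for further members where their overlap is described, which were chosen after their values were seen. No protein sequences were used here. Alternatives covered the pseudocount, the filter, scaling, GC content and length correction, the variance model, a replicate block, the threshold and leaving out libraries.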

Additional observations from a re-analysis of the deposited data

How the results depend on the processing

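No member passed the adjusted threshold under any of 27 alternatives, and the smallest adjusted p of a member was 0.0736 (limma). Of 940 member values 900 kept their sign and 40 did not, and 26 of the 35 members were positive throughout. The labels name no pairs, and deviations from the group mean correlated at 0.10, -0.12 and -0.0809 for libraries numbered 1, 2 and 3. With a replicate block 1 gene was called over all genes instead of 2 (1 also with scaling, and with scaling and GC and length correction), and 13 members instead of 16 were higher at an unadjusted p under 0.05 (22 instead of 28 with scaling, and 18 instead of 28 with GC and length correction). The share of all tested genes at that unadjusted p is not given for the replicate block, so these member counts cannot be set against it. The number of genes called over all genes was 17 with no filter and 14 with robust empirical Bayes. Leaving libraries out gave 1 to 231, with 61 without knockout library 3 and 231 without both libraries numbered 3. After scaling the counts were 3, 1, 23, 4, 4 and 7 without knockout libraries 1 to 3 and wild-type libraries 1 to 3 in turn, and 47 without both.

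Members with all knockout above all wild-type values numbered 25 with scaling (also with a replicate block), 26 with quantile normalization and 27 with GC and length correction (also with a replicate block). Of all tested genes, 12.9%, 11% and 11.1% had this order with scaling, quantile normalization and GC and length correction. Leaving libraries out gave 16 to 21 members, against 2 to 4.09% of all tested genes. After scaling the counts were 29, 26, 25, 26, 31 and 25 in the same order, and 25 without both. The shares of all tested genes were then 23.9, 16.4, 17.1, 16, 17.5 and 19% in that order, and 23.3% without both. The median log2 fold change of the members ran from 0.14 (without both) to 0.77, and was 0.31 without knockout library 3. After scaling it was 1.11, 0.99, 0.51, 0.83, 1.02 and 0.73 in the same order, and 0.44 without both. With libraries left out, the median over all tested genes ran from -0.36 to -0.18, and from -0.0045 to 0.0038 after scaling.

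Trim25 turned to 0.16 with scaling (also with a replicate block), 0.17 with quantile normalization, 0.04 with a common sum without Mir6236 and 0.28 with GC and length correction (also with a replicate block). Slfn2 turned to 0.19, 0.20, 0.0711 and 0.0744 in the same settings. After scaling and leaving out 1 library in the same order, Trim25 was at 0.20, 0.26, 0.0198, 0.23, 0.11 and 0.14, and Slfn2 at 0.37 and 0.22 without knockout libraries 1 and 2 and at 0.18, 0.31 and 0.0865 without wild-type libraries 1 to 3. With libraries left out before scaling, log2 fold changes ran from -0.32 to 0.0365 for Trim25, -0.0917 to 0.15 for Ifi27, -0.34 to 0.19 for Ifitm3, -0.32 to 0.20 for Oas2, -0.19 to 0.31 for Ifi35, -0.0959 to 0.46 for Parp12, -0.0863 to 0.67 for Parp14 and -0.0057 to 0.43 for Sp100. Without both libraries after scaling, Oas2 was at -0.13 and Ifitm3 at -0.0081. The cause of these changes was not tested. Depth limits the lowest genes: Ddx60 rests on roughly 3.12 fragments in wild-type library 3.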
